A study of Homo sapiens with 6 samples.

Results

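Cells in which an APE1 transgene had been switched on differed from equally treated control cells in a set of genes led by LCP1, SPARC and GSTP1, which were higher, and MAL2, EPCAM and ENO2, which were lower. APEX1, the gene of APE1, was 2.07-fold higher on average in the 2 APE1 lines. Many more genes were lower than higher. Without doxycycline the same lines differed from the control by about the same size in LCP1, SPARC, GSTP1 and ENO2. The values were smaller in EPCAM, KHK and SGPP2, but a direct test of treated minus untreated differences called 0 rows. The lower genes included 3 targets of ERK signalling (ETV5, ETV4, DUSP6), enzymes and transporters for amino acids (CTH, ASNS, PSAT1, SLC1A4, SLC7A11) and the sterol synthesis enzyme HMGCS1. The lists of ERK genes and amino acid transporters had medians of -0.45 and -0.39 log2 with doxycycline and -0.47 and -0.50 without.

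The comparison set 3 of the 6 samples of the series against each other: the vector, wtAPE1 and ubAPE1 lines, all after doxycycline. The lines were made from HEK293 cells, an established line from human embryonic kidney. They carry pcDNA-FRT with no insert (vector), with wild-type APE1 (wtAPE1) or with APE1 fused to ubiquitin (ubAPE1) under a tet-on system, in which doxycycline turns on the transgene. Treated cells had received 2 µg doxycycline for 16 h, and all lines, the control included, grew in puromycin at 1 µg/ml. The labels do not say whether a line is a single clone, so transgene and line cannot be told apart, and the 3 untreated samples of the same lines serve as the check on this.

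Each sample is 1 column of an Affymetrix whole-transcript array table, stated to stand for 3 biological replicates, so the spread between replicates is not in the values. Of 15492 rows, each a transcript cluster, 11619 had a mean over the 6 columns at or above the 25th percentile (5.03 log2) and were compared, and 9569 genes were named from rows with 1 symbol. A difference is an APE1 column minus the vector column of the same doxycycline state on the log2 scale, less the median difference over the compared rows. With doxycycline that median was -0.06 for wtAPE1 and -0.11 for ubAPE1. Rows were called by 2 rules. The size rule asks for at least 1.5-fold in both APE1 lines and has no test. The other is limma with Benjamini-Hochberg adjustment at 0.05, in which the 2 APE1 lines stand in for replicates. Its spread is the gap between these lines in both states, largely pooled over all rows (15.49 prior beside 2 residual degrees of freedom). The SE was therefore similar in most rows (median 0.1853), and the p-values mostly follow the size of the mean difference. They do not measure how cultures of the vector line varied.

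APE1 cuts DNA at sites that have lost their base, a central step of base excision repair, in which glycosylases such as UNG and OGG1 remove damaged bases and POLB and LIG3 fill and close the gap. It is also known as a redox factor that keeps transcription factors, AP-1 among them, in a reduced and DNA-binding form. Ubiquitin joined to a protein can mark it for breakdown or change where it acts in the cell.

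A step in the table touches every count below. In the order of the row identifiers, the treated differences shifted after row 6343. The 4745 compared rows before the step had a median of -0.20 log2 and the 6874 rows after it a median of 0.09, both for the mean of the APE1 lines relative to all compared rows. Without doxycycline the same 2 blocks had medians of 0.0092 and -0.0080. The rows run largely by chromosome. With doxycycline the gene medians of chromosomes 1 to 8 lay between -0.32 and -0.12 before block subtraction. Those of the later chromosomes and X lay between -0.01 and 0.32, apart from chromosome 18 at -0.41. The responses of single lines moved at the same place, with the vector line's treated minus untreated median at 0.0224 before and -0.0892 after, that of wtAPE1 at 0.0276 and 0.1128, and that of ubAPE1 at -0.2928 and -0.0446, all as deposited. The cause was not tested. Values with the median of each block subtracted are given as within-block values beside the main counts and beside the named genes whose calls they change.

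**Figure D1:**
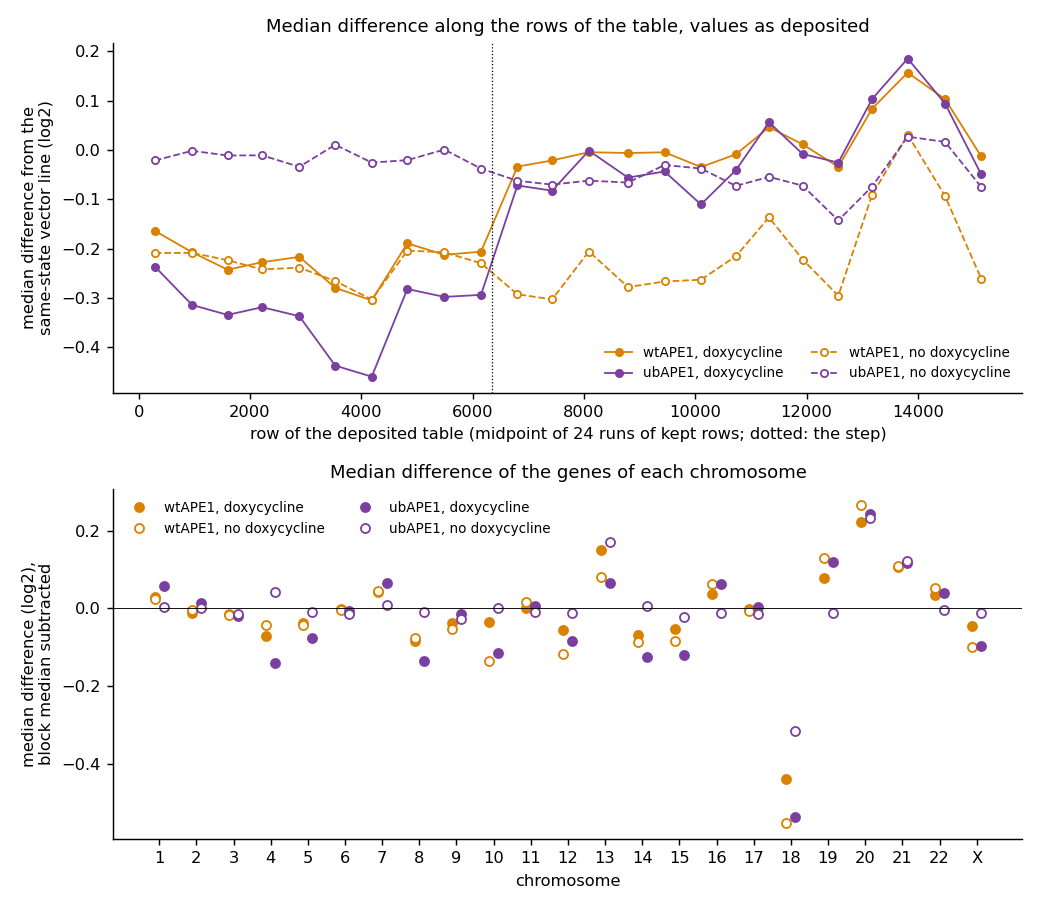
Upper panel: median difference of each APE1 line from the vector line of the same state (log2, as deposited) in 24 runs of compared rows along the table, with the step after row 6343 dotted. Lower panel: median difference per chromosome with the block median subtracted. The treated medians rise at the step, and chromosomes 18 and 20 lie apart from the others in both lines and both states.

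The transgene was looked for through APEX1, whose level was 9.66 log2 in the treated vector line, 10.67 in treated wtAPE1 and 10.58 in treated ubAPE1, so both APE1 columns lay above the control. Without doxycycline the vector, wtAPE1 and ubAPE1 columns held 9.54, 9.50 and 9.82. The treated difference was 1.08 for wtAPE1 and 1.03 for ubAPE1, with a mean of 1.05 ± 0.18 log2 (SE; limma adjusted p = 0.00186), against 0.17 and 0.32 without doxycycline. APEX1 ranked 13 of 11619 rows by mean treated difference and 1513 by the untreated one. The array does not tell the transgene's RNA from that of the cell's own gene. UBB, a polyubiquitin gene, lay between 12.05 and 12.26 in all 6 columns and was not called (mean 0.18, limma adjusted p = 0.622).

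Of the 11619 rows, limma called 82 higher (0.706%) and 441 lower (3.8%) in the treated APE1 lines. The size rule found 103 higher (0.886%) and 479 lower (4.12%). Both rules were met by 81 of the higher and 424 of the lower rows. By the size rule, 27 of the higher and 350 of the lower rows lay before the step. Only 13 rows were at least 2-fold higher in both lines and 114 at least 2-fold lower. Within blocks limma called 63 higher (0.542%), of which 41 were shared with the first count, and 250 lower (2.15%), of which 235 were shared. The size rule then found 139 higher (1.2%; 67 shared) and 358 lower (3.08%; 307 shared), and the share of higher rows among those it found went from 17.7% to 28.0%. With the values as deposited, no median subtracted, that share was 8.90%.

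**Figure D2:**
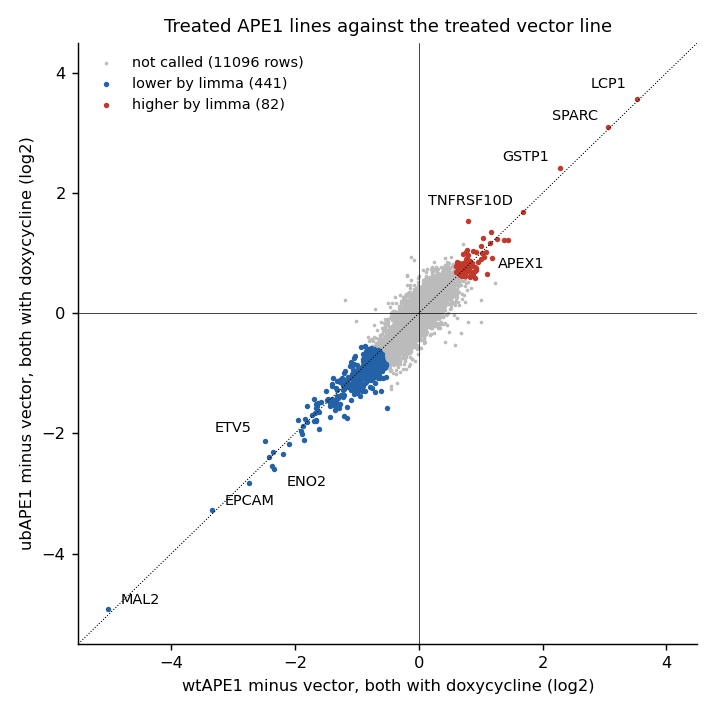
Difference of ubAPE1 from the vector line against that of wtAPE1, all with doxycycline (log2, median subtracted), for 11619 rows, with rows called by limma in red (82 higher) and blue (441 lower). The called rows lie along the dotted line of equal difference in part by construction, since the fit calls the mean of both differences and both axes share the vector column.

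LCP1, which encodes the actin-bundling protein L-plastin of blood cells and many tumour cells, had the largest increase over the control. Its level was 4.25 log2 in the treated vector line against 7.71 in wtAPE1 and 7.70 in ubAPE1. The untreated columns held 4.21, 7.35 and 7.97, so the APE1 lines were high in both states and did not overlap with the control. The mean treated difference was 3.55 ± 0.20 log2 (SE), 11.7-fold (limma adjusted p = 5.01e-09), beside 3.56 without doxycycline. The vector level lies below the row filter, and LCP1 passed that filter only through its APE1 columns.

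SPARC, a secreted protein that binds collagen and modulates cell adhesion, held 4.37 in the treated vector line, 7.37 in wtAPE1 and 7.35 in ubAPE1, after 4.57, 7.30 and 7.72 untreated. It was 8.43-fold higher with doxycycline (3.07 ± 0.18 log2, SE; limma adjusted p = 1.02e-08). GSTP1, a glutathione transferase that detoxifies electrophiles, read 5.78, 7.99 and 8.09 with doxycycline and 5.67, 7.58 and 7.91 without. Its treated difference was 2.34 ± 0.18 log2 (SE), 5.07-fold (limma adjusted p = 3.11e-07). In these 3 genes the control columns with and without doxycycline lay within 0.20 log2 of each other, while each APE1 column was well above both. The vector level of SPARC, like that of LCP1, is near the 10th percentile of all values (4.09 log2), so both folds are read at the bottom of the scale. Of the 15 largest increases, 6 had a treated vector level below the row filter (LCP1, SPARC, IFITM1, ZDHHC22, TSPAN11 and FAM167B). SPARC, IFITM1, ZDHHC22 and TSPAN11 had both vector columns below it and so, like LCP1, passed it only through their APE1 columns.

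TNFRSF10D, a decoy receptor that binds the death ligand TRAIL without signalling death, read 8.0 in the treated vector line, 9.62 in wtAPE1 and 9.57 in ubAPE1, a difference of 1.68 ± 0.18 log2 (SE; limma adjusted p = 1.96e-05). Without doxycycline its difference was 1.37 for wtAPE1 and 1.62 for ubAPE1. Of 7 measured death receptors and TRAIL decoy receptors, limma called 1 higher and 2 lower (1 and 0 within blocks), with a median of 0.02. IFITM1, a membrane protein that blocks virus entry, and IRF8, a transcription factor of blood cells, were 2.45-fold and 2.37-fold higher. Of 14 measured interferon regulatory factors and interferon-stimulated genes, limma called 2 higher and 1 lower (2 and 0 within blocks). Of the 14, 7 lay above 0 and 7 below, with a median of -0.02. Over all 9569 genes limma called 0.679% higher and 4.03% lower. CRMP1, a cytosolic protein of axon guidance, was 2.23-fold higher, and ZDHHC22, of the palmitoyltransferase family, 2.21-fold. IFITM1, IRF8, CRMP1 and ZDHHC22 were also past 1.5-fold in both lines without doxycycline.

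PAXBP1, MYCN and WFS1 were among the 15 largest rises but differed little without doxycycline, and in each the vector column was lower after treatment. PAXBP1, which links PAX proteins to chromatin-modifying enzymes, went from 7.45 to 6.54 in the vector line, while wtAPE1 went from 7.30 to 7.64 and ubAPE1 from 7.78 to 7.79. WFS1, an endoplasmic reticulum membrane protein, went from 6.22 to 5.46 in the vector line, from 5.92 to 6.15 in wtAPE1 and from 5.81 to 6.37 in ubAPE1. The treated difference was 1.26 ± 0.19 log2 for PAXBP1 and 0.89 ± 0.19 for WFS1 (SE; limma adjusted p = 0.000674 and 0.0123). Both passed also within blocks. The tetraspanin gene TSPAN11, FAM167B and the keratin-associated KRTAP10-7 completed the 15, at 2.06-fold, 1.95-fold and 1.93-fold. FAM167B and KRTAP10-7 also differed little without doxycycline, at a mean of -0.02 and -0.08 log2. Their vector columns went from 5.23 to 4.57 and from 6.37 to 5.98 with treatment.

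**Figure D3:**
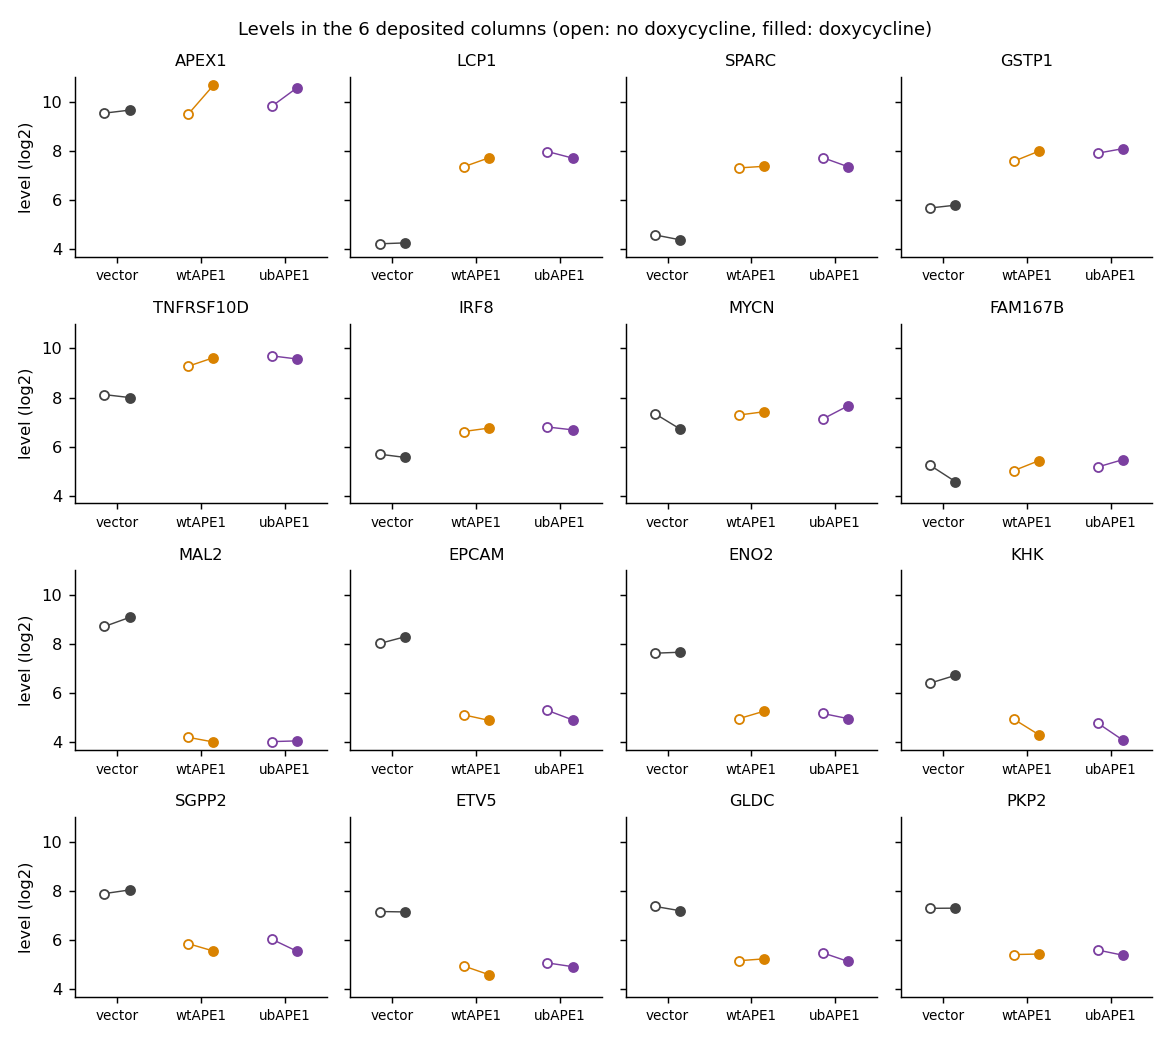
Levels (log2) of 16 genes in the 6 deposited columns, with open points for no doxycycline and filled points for doxycycline, 1 averaged column per point and no error bar. APEX1 is higher with doxycycline than without in both APE1 lines, LCP1, SPARC and GSTP1 are high and MAL2, EPCAM and ENO2 low in both states, and MYCN and FAM167B are lower with than without doxycycline in the vector line.

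MAL2, a membrane protein of transcytosis in polarised epithelial cells, had the largest decrease. Its level was 9.09 log2 in the treated vector line, 4.01 in wtAPE1 and 4.06 in ubAPE1, and 8.72, 4.2 and 4.03 without doxycycline. The treated difference of -4.97 ± 0.19 log2 (SE), 31.4-fold lower (limma adjusted p = 2.49e-11), rests on APE1 levels under that 10th percentile. EPCAM, the epithelial cell adhesion molecule, read 8.30, 4.90 and 4.91 with doxycycline and 8.03, 5.12 and 5.30 without. It was 9.94-fold lower with treatment (-3.31 ± 0.18 log2, SE; limma adjusted p = 3.16e-09), beside -2.70 without. Within its block the treated difference of EPCAM was -3.11. In both genes each APE1 column was below each vector column. In such averaged bulk columns, fewer cells that hold a transcript and less of it per cell cannot be told apart.

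ENO2, the enolase isoform typical of neurons, read 7.67 in the treated vector line, 5.27 in wtAPE1 and 4.97 in ubAPE1, 5.55-fold lower (-2.47 ± 0.18 log2, SE; limma adjusted p = 2.15e-07). Its ubiquitous counterpart ENO1 differed by -0.07 and was not called. KHK, which phosphorylates fructose, read 6.73, 4.30 and 4.08 with doxycycline and 6.41, 4.93 and 4.78 without. SGPP2, a phosphatase of sphingosine 1-phosphate, read 8.04, 5.55 and 5.53 after treatment. KHK was 5.5-fold and SGPP2 5.33-fold lower, at -2.46 and -2.41 log2 with doxycycline and -1.45 and -1.84 without. Within their block the treated differences were -2.26 and -2.22.

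Among the other genes of the 15 largest falls, differences ranged from -1.80 log2 for SLAIN1, a microtubule-associated protein, to -2.34 for the stress-response gene NIBAN1. GLDC, the glycine decarboxylase of mitochondria, fell by 1.93 and PKP2, a plakophilin of desmosomes, by 1.81 log2. GPM6A, a neuronal membrane glycoprotein, fell by 2.14 and KIF1A, a kinesin motor of axonal transport, by 1.95. PDGFRL, TTC39A and ARFGEF3 fell by 2.27, 1.88 and 1.87. Each of the 15 was also past 1.5-fold lower in both lines without doxycycline, and each passed limma within its block. In 6 of the 15 both treated APE1 levels were below the row filter (MAL2, EPCAM, KHK, NIBAN1, ETV5 and ARFGEF3). MAL2, KHK, NIBAN1 and ARFGEF3 had every APE1 column below it and so passed it only through their vector columns.

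AP-1, a factor that APE1 is known to keep reduced, binds the letters TGANTCA. Promoter windows are shown for 2 of these genes that hold these letters. GSTP1 was higher and ENO2 lower, and the window of each holds 1 match, in capitals. Among the largest falls SGPP2 and ARFGEF3 also held 1 match each, while LCP1, SPARC and GLDC, for example, held 0. The windows run from 250 bases before to 50 after the start in RefSeq (GRCh38.p14), at chr11:67583562-67583861 on the plus strand for GSTP1 and chr12:6914330-6914629 on the plus strand for ENO2.
GSTP1: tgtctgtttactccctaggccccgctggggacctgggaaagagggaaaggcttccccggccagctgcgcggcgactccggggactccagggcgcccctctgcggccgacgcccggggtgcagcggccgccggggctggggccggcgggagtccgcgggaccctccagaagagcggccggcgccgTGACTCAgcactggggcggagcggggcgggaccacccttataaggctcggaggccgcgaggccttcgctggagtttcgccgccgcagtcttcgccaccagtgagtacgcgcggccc
ENO2: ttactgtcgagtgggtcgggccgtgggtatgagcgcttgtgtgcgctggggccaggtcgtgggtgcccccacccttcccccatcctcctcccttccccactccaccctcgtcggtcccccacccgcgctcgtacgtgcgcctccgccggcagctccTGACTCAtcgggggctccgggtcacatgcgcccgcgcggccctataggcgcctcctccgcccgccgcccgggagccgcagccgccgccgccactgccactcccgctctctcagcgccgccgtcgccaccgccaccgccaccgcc
The match began 66 bases before the start in GSTP1 and 94 before it in ENO2. Over both strands, TGANTCA was found in 4 of 51 windows of genes called higher by both rules (7.84%) and in 18 of 316 of those called lower (5.70%). It was found in 315 of the 7860 windows of all compared genes (4.01%) and in 7.76% of the 27305 genes in the promoter table. A match is a run of letters and not a measured site.

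The base excision repair list held 18 measured genes, of which APEX1 alone passed, beside 0.706% of rows called higher over the table. The median difference of the list was 0.041 log2, against -0.0031 over all 9569 genes. Of those genes limma called 65 higher (0.679%) and 386 lower (4.03%), or 51 and 215 (2.25%) within blocks, and the list counts below are set beside these shares. APEX2, the paralogue of APEX1, read 0.48 with doxycycline and 0.54 without and was not called. At the lower end PARP1, the sensor of DNA strand breaks, read -0.54, with -0.34 within its block (limma adjusted p = 0.123). UNG, OGG1, POLB and LIG3 lay between -0.33 and 0.14.

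Of 16 measured transcription factors described as redox targets of APE1, 1 passed and was lower, MYB, a regulator of blood progenitor growth. MYB read 5.85 in the treated vector line, 4.72 in wtAPE1 and 4.63 in ubAPE1, a difference of -1.09 ± 0.18 log2 (SE; limma adjusted p = 0.00114). JUN read -0.62 and missed the threshold (limma adjusted p = 0.0577). HIF1A read -0.16, RELA 0.28 and FOS -0.05. The list's median was -0.11. On the list of 14 AP-1 and immediate early genes only ATF3 was called, at -0.75 (limma adjusted p = 0.0211), a call lost within its block, where it read -0.55.

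Of 13 ERK feedback and target genes, 3 were called lower and 0 higher, with 11 below 0, and 3 were called lower within blocks. The median of the list was -0.45, and -0.47 without doxycycline. ETV5 and ETV4 are ETS transcription factors induced by growth factor signals. ETV5 read 7.14 in the treated vector line, 4.59 in wtAPE1 and 4.91 in ubAPE1 (limma adjusted p = 6.67e-07), and ETV4 read 7.11, 5.39 and 5.42 (limma adjusted p = 1.96e-05). DUSP6, the phosphatase that switches off ERK, read 6.79, 5.59 and 5.62 (limma adjusted p = 0.00105). The 3 were lower by 2.31, 1.62 and 1.10 log2, and by 2.04, 1.72 and 1.03 without doxycycline. SPRY1, SPRED2 and SPRED1, inhibitors of the same pathway, read -0.63, -0.59 and -0.57 and did not pass, and PHLDA1 read 0.25.

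Genes of amino acid supply and of the stress response run by the transcription factor ATF4 formed 4 lists. ATF4 itself read 0.36 and was not called. The list of ATF4 and stress response regulators, which mixes regulators with targets, held 17 measured genes. Of these 5 were called lower, 4 within blocks, and 15 lay below 0. The median of the list was -0.34, and -0.43 without doxycycline. STC2, a secreted glycoprotein, read 7.62 in the treated vector line against 6.39 and 6.38. CHAC1, which degrades glutathione, read 6.42 against 5.15 and 5.31, and VLDLR, a lipoprotein receptor, 6.75 against 5.59 and 5.47. Their differences were -1.15, -1.11 and -1.14 log2 with doxycycline, and -0.94, -1.51 and -0.71 without. DDIT4, an inhibitor of mTORC1, read -0.72 and was called, while TRIB3 and ATF5 read -0.06 and -0.03.

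Of 10 enzymes that make serine, asparagine, proline or cysteine, 3 were called lower, also within blocks. CTH, which makes cysteine from cystathionine, read 7.27 in the treated vector line, 5.89 in wtAPE1 and 5.88 in ubAPE1 (-1.30 ± 0.18 log2, SE; limma adjusted p = 0.00021). ASNS, the asparagine synthetase, read 9.59, 8.45 and 8.31, a difference of -1.13, and PSAT1, of serine synthesis, 9.95, 8.99 and 8.95, a difference of -0.90. These 3 APE1 levels lay below the vector level in both states.

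Among 13 amino acid transporters, SLC1A4, which carries alanine and serine, and SLC7A11, the cystine importer, were called lower, at -1.23 and -1.20, and 2 of the list within blocks. Among 18 cytosolic tRNA synthetases NARS1, EPRS1, TARS1 and LARS1 were called lower, at -0.97, -0.81, -0.78 and -0.75. Within blocks only NARS1 kept its call of these 4, at -1.06. NARS1 lies on chromosome 18, whose genes were lower as a set. The medians were -0.39 for the transporters and -0.35 for the synthetases, and -0.50 and -0.33 without doxycycline. On the transporter list the other row of SLC1A5 had the opposite sign, 0.36 against -0.08.

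Windows of 3 genes called lower are shown for the letters that ATF4 and its partners are known to bind, here searched as TGATGNAAN on both strands, with the match in capitals. They lie at chr7:97872359-97872658 on the minus strand for ASNS, chr15:40953221-40953520 on the plus strand for CHAC1 and chr18:57621787-57622086 on the minus strand for NARS1 (RefSeq, GRCh38.p14), each written in the direction of its gene.
ASNS: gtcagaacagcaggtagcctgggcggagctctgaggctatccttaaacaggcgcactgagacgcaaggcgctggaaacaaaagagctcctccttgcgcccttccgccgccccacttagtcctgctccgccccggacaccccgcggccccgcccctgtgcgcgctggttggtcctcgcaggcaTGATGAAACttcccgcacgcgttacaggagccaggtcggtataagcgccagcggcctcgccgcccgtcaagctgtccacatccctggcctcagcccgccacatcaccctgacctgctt
CHAC1: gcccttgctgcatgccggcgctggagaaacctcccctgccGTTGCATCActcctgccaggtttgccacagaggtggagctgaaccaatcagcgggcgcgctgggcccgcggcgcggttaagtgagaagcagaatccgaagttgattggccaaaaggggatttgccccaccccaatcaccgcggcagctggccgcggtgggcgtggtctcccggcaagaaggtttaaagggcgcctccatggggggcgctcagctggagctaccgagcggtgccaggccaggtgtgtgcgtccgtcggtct
NARS1: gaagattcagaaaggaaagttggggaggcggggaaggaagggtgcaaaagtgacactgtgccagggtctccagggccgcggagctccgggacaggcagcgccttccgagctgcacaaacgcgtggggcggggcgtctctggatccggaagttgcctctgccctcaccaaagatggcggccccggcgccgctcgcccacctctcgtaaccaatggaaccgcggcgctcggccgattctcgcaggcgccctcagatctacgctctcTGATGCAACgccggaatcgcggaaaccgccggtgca
The match began 68 bases before the start in ASNS, 210 before it in CHAC1 and 14 after it in NARS1, and in CHAC1 it is on the opposite strand. Of the 50 windows of measured genes on the 4 lists, 13 held the letters (26%), among them 5 of the 13 windows of genes that limma or the size rule called lower. The letters were in 123 of 7860 windows of all compared genes (1.56%), in 11 of 316 of the genes called lower by both rules (3.48%) and in 3.67% of the promoter table. CTH and PSAT1 had no match in these windows. The lists were drawn up by function around ATF4 and amino acid supply and hold known ATF4 targets such as ASNS and CHAC1. The share of the lists is therefore not a finding of these data.

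**Figure D4:**
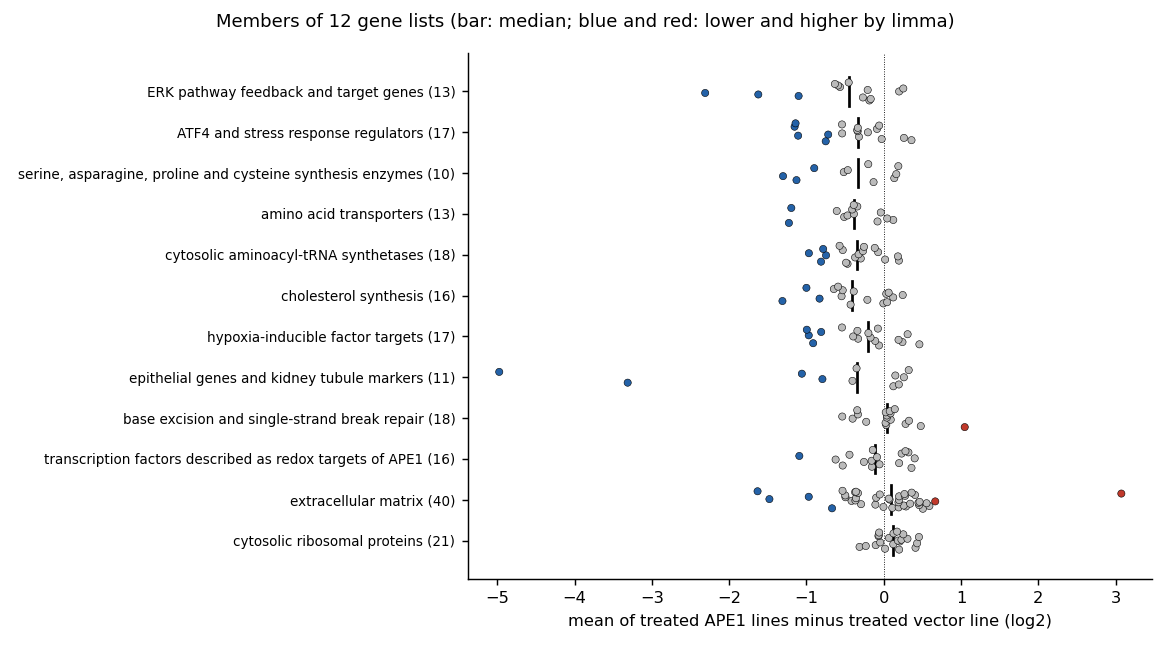
Mean difference of the treated APE1 lines from the treated vector line (log2) for the measured members of 12 gene lists, with the number of members in brackets, the list median as a bar, and members called by limma in blue (lower) or red (higher). The ERK, amino acid and cholesterol lists lie mostly below 0, and APEX1 is the single called point of the base excision repair list.

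Of 16 cholesterol synthesis genes 3 were called lower, 2 within blocks, with a median of -0.41, and -0.27 without doxycycline. HMGCS1, which makes the precursor of mevalonate, read 8.82 in the treated vector line, 7.52 in wtAPE1 and 7.32 in ubAPE1 (-1.31 ± 0.19 log2, SE; limma adjusted p = 0.000487). STARD4, a sterol carrier, read -1.0, and INSIG1, which holds back sterol synthesis, -0.83, a call lost within its block at -0.63. Without doxycycline the 3 read -0.74, -0.31 and -0.33. SQLE, MSMO1 and DHCR7 read -0.64, -0.55 and -0.43, and MVD 0.25, none of them called. FADS2, the desaturase that starts the synthesis of long polyunsaturated fatty acids, read 7.62, 6.26 and 6.10 and fell by 1.36 log2 (limma adjusted p = 0.00015).

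Of 17 targets of hypoxia-inducible factors 4 were called lower, 3 within blocks, with a median of -0.20, and -0.19 without doxycycline. PDK1, which inhibits pyruvate dehydrogenase, read 8.34 in the treated vector line against 7.37 and 7.16. LOX, which crosslinks collagen, BHLHE40, a transcriptional repressor, and P4HA1, a collagen prolyl hydroxylase, read -0.97, -0.91 and -0.81. P4HA1 lost the limma call within its block, at -0.90 (limma adjusted p = 0.065). VEGFA read -0.54 and SLC2A1 -0.07, and ANGPTL4, at 0.46, was the highest of the list; none of these 3 was called.

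Epithelial, kidney and matrix genes formed further lists. Of 11 measured epithelial and tubule genes 4 were called lower, MAL2, EPCAM, LRP2 (megalin, an endocytic receptor of the proximal tubule) at -1.06 and the keratin KRT19 at -0.79. The summed level of 5 epithelial markers was 11.13 log2 in the treated vector line, 10.79 in wtAPE1 and 10.89 in ubAPE1. Of the 5, the keratin KRT8 read 10.39, 10.40 and 10.51, KRT18 read 8.66, 8.15 and 8.19, and CDH1 was below the row filter; none of these 3 was called. Without EPCAM and KRT19 the sum was 10.79, 10.69 and 10.79. Of 40 matrix genes 2 were called higher (SPARC and FBLN5, at 0.67) and 4 lower, with 2 and 3 within blocks. FBLN5, an elastic fibre protein, lost both calls there, at 0.58, and the fibrillar collagen COL3A1 gained the limma call. TNC, a glycoprotein of remodelled matrix, fell by 1.63 and LAMA4, a laminin chain, by 1.48 log2. ITGA6, an integrin subunit that binds laminin, fell by 1.41. Of 8 kidney lineage markers of HEK293, 1 was called lower, with a median of 0.26. It was CDH2, the cadherin of mesenchymal and neural cells, which read 8.91 in the treated vector line, 7.70 in wtAPE1 and 7.57 in ubAPE1, and fell by 1.19. LHX1, a transcription factor of kidney development, read 5.72, 6.28 and 6.23 and met the size rule alone, though not within its block.

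The markers of HEK293 and of other cells were read beside these results. PAX2, a kidney lineage factor, lay between 5.98 and 6.24 log2, WT1 between 6.35 and 6.59 and VIM between 9.49 and 10.19 in the 6 columns. Of the same lineage markers, CDH2 was lower and LHX1 higher in the treated APE1 lines, as given above. Of 15 blood cell markers on the array 10 were below the row filter, CD3E, CD4 and CD14 among them, and 2 of the 5 others, LCP1 and IRF8, were higher in the APE1 lines. LCP1 counts among these 5 only through its APE1 columns. The summed level of the 15 was 8.86 log2 in the treated vector line, 9.49 in wtAPE1 and 9.48 in ubAPE1, and without LCP1 and IRF8 it was 8.64, 8.65 and 8.66. Of 8 endothelial markers 5 were below the filter and 0 of the other 3 were called. Of 18 neuronal markers 8 were below the filter and ENO2 alone was called by limma, while NEFL met the size rule at -0.62 and was called by limma within its block alone. The summed level of the 18 was 12.08 log2 in the treated vector line, 11.51 in wtAPE1 and 11.47 in ubAPE1. Without doxycycline it was 12.05, 11.40 and 11.55. UCHL1, the marker with the highest level of the 18, read 11.38, 10.74 and 10.67 with doxycycline and met neither rule. Of 8 fibroblast and smooth muscle markers 3 were below the filter, and COL3A1 met the size rule at 0.59.

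The same lines without doxycycline tell how much of the treated difference was there beforehand. By the size rule 42 rows were higher (0.361%) and 266 lower (2.29%) in both untreated lines. Of the 103 rows higher with doxycycline, 26 were also higher without it (25.2% of the treated and 61.9% of the untreated rows), and 81 had the same sign in both untreated lines. Of the 479 lower rows 197 were also lower without it (41.1% and 74.1%), and 427 had the same sign. Within blocks, 27 of the 139 higher rows (19.4%) and 191 of the 358 lower rows (53.4%) were also past 1.5-fold without it. Among rows past 2-fold with doxycycline, 10 of the 13 higher and 100 of the 114 lower ones were past 1.5-fold without it. Of the rows past 1.5-fold with doxycycline, 0 were past 1.5-fold the other way in both untreated lines.

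Median differences of the called rows were larger with doxycycline than without it. For the 103 higher rows the median was 0.74 log2 treated and 0.44 untreated, and for the 479 lower rows -0.85 and -0.59. These rows were chosen by the treated values, so the 2 medians are not on an equal footing. A direct test of the treated minus the untreated difference with limma called 0 rows, with 485 at an unadjusted p under 0.05 and a smallest adjusted p of 0.764. APEX1 itself, at 0.81 log2 more with doxycycline, had an unadjusted p of 0.00521 and an adjusted p of 1.00 in that limma fit. With the columns of each line paired, cell line as a block and 1 residual degree of freedom, limma again called 0 rows, with 231 at an unadjusted p under 0.05 and a smallest adjusted p of 0.246.

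**Figure D5:**
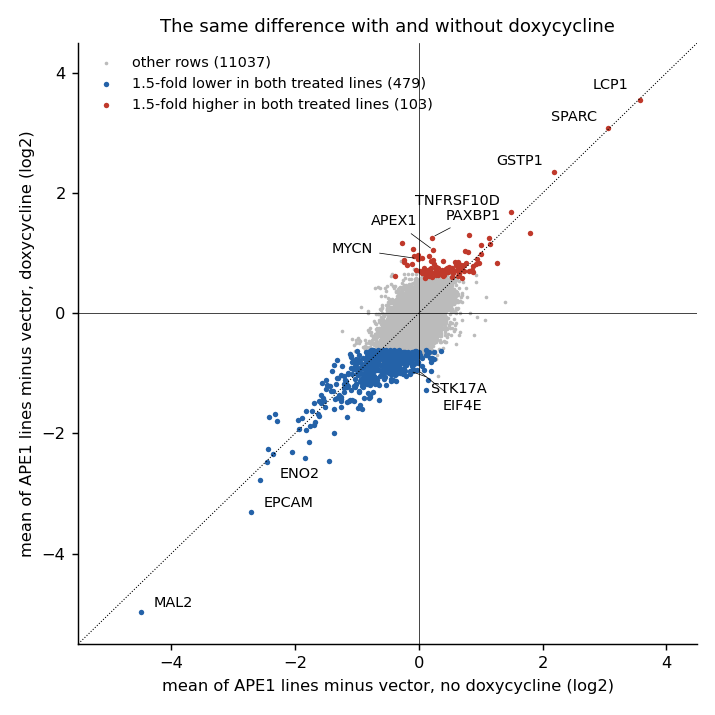
Mean difference of the APE1 lines from the vector line with doxycycline against the same difference without it (log2), for 11619 rows, with rows past 1.5-fold in both treated lines in red (103 higher) and blue (479 lower). LCP1, SPARC, GSTP1 and ENO2 lie near the dotted line of equal difference, and APEX1, MYCN, PAXBP1, EIF4E and STK17A near 0 on the untreated axis.

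A small set met the size rule with doxycycline while both untreated lines lay within 1.2-fold of the control. It had 13 higher and 36 lower rows, with FAM167B among the higher ones. In all 13 higher rows the vector column was lower with than without doxycycline, and in 11 it moved more than either APE1 column. The treated vector column enters both treated differences. Choosing rows this way therefore favours a low treated vector value in the higher rows and a high one in the lower rows. MYCN, a growth-promoting transcription factor, read 7.34 in the untreated and 6.71 in the treated vector line, against 7.29 and 7.42 in wtAPE1 and 7.12 and 7.66 in ubAPE1. SON, an RNA splicing cofactor, and ZRSR2, a subunit of the splicing machinery, went from 7.52 to 6.80 and from 6.73 to 5.89 in the vector line. Their treated differences were 0.82 and 0.81, and SON lost the limma call within its block, at 0.72 (limma adjusted p = 0.0601). CPLX2, LCE1F, ENTPD1-AS1 and ANKRD49 differed by 0.75, 0.70, 0.67 and 0.65, the last 2 not called by limma. Within blocks 8 of the 13 were still past 1.5-fold, ENTPD1-AS1 and ANKRD49 not among them.

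Among the 36 lower rows the vector column was higher with than without doxycycline in 35 and moved most in 7. Of the 36, 33 lay before the step, and 7 were still past 1.5-fold within blocks. EIF4E, the protein that binds the cap of messenger RNA, read 7.23 and 7.08 in the untreated and treated vector line, 6.96 and 6.24 in wtAPE1 and 7.23 and 5.88 in ubAPE1. KPNA2, an importin that carries proteins into the nucleus, read 5.60 and 5.74, 5.20 and 4.76, and 5.63 and 4.86 in the same order. In both genes the APE1 columns were lower with doxycycline while the vector column moved by 0.15 log2 or less. STK17A, a kinase linked to cell death, differed by -0.96 with doxycycline and -0.15 without. EIF4E, KPNA2 and STK17A kept their calls within blocks, at -0.74, -0.93 and -0.76 (limma adjusted p = 0.0433, 0.0135 and 0.0307). GFPT1, ERO1B, AUNIP and ADCK2 read between -0.82 and -0.77 and lost both calls within blocks. PRSS12, at -0.80, lost the limma call there.

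Taken line by line, wtAPE1 had 155 rows higher (1.33%) and 539 lower (4.64%) than the vector line past 1.5-fold, and ubAPE1 262 higher (2.25%) and 1020 lower (8.78%). For ubAPE1 the counts were 340 higher and 659 lower within blocks, and 114 higher and 1576 lower with the values as deposited. The 103 shared higher rows were 66.5% of those of wtAPE1 and 39.3% of those of ubAPE1, and the 479 lower ones 88.9% and 47.0%. The lines were set against the same vector column, so sharing is built in. Rows past 1.5-fold higher in one line and lower in the other numbered 0. The difference between the lines had a standard deviation over rows of 0.17 log2 with doxycycline and 0.28 without. Past 2-fold in wtAPE1 and within 1.2-fold in ubAPE1 were 1 higher and 2 lower rows, and there were 0 such rows for ubAPE1. Of these TMC7, of the transmembrane channel-like family, read 7.46 in the treated vector line, 6.39 in wtAPE1 and 7.22 in ubAPE1.

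Genes of 2 chromosomes stood apart together once the block median was subtracted. The 130 compared genes of chromosome 18 had median within-block differences of -0.44 in treated wtAPE1 and -0.54 in treated ubAPE1, and of -0.55 and -0.31 without doxycycline. Of them 113 were below 0, and by the size rule 16 were lower and 1 higher (EMILIN2, a matrix protein), or 28 and 0 within blocks. Over all 9569 genes the size rule found 415 lower (4.34%) and 84 higher (0.878%), or 311 (3.25%) and 106 (1.11%) within blocks. Before block subtraction, 38 of 332 genes of chromosome 4 and 58 of 417 of chromosome 5 were also lower. With the genes of chromosome 18 cut into 10 runs along it, the medians of the first 9 runs lay between -0.40 and -0.72. That of the last run, from MBP to PARD6G, was at -0.0007. The 296 genes of chromosome 20 had medians of 0.22 and 0.24 treated and 0.27 and 0.23 untreated, with 257 above 0. By the size rule 21 of them were higher and 0 lower, or 10 and 1 within blocks. The medians of the other 21 chromosomes lay between -0.08 and 0.15 in treated wtAPE1 and between -0.14 and 0.12 in treated ubAPE1.

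Several genes named above lie on these chromosomes. On chromosome 18 they were CDH2 and NARS1. Others there were NEDD4L, a ubiquitin ligase of sodium channels, at -0.91 log2, the desmosomal cadherins DSC2 and DSC3 at -0.82 and -0.79, and NPC1, which exports cholesterol from lysosomes, at -0.78. BCL2, which blocks cell death, and SMAD2, which relays TGF-beta signals, read -0.56 and -0.60 and met neither rule, though both were past 1.5-fold within blocks. On chromosome 20 BMP2, a growth factor of the TGF-beta family, read 5.41 in the treated vector line, 6.26 in wtAPE1 and 6.06 in ubAPE1. MCM8, a helicase of recombination, read 0.80, ADA, adenosine deaminase, 0.75, and PLCG1, a phospholipase of receptor signalling, 0.72, all called higher by limma. Within blocks MCM8, ADA and PLCG1 lost that call (limma adjusted p = 0.12, 0.0588 and 0.0708) and were still past 1.5-fold, while BMP2 kept it (limma adjusted p = 0.0466).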

How the data were processed

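RNA of 6 samples of HEK293 derivatives was measured on Affymetrix whole-transcript arrays. The deposited values are on a log2 scale, which was read from the values. Per the labels' protocols each column stands for 3 biological replicates. How they were summarised, normalized and filtered is not given in the sources used here. Build hg 18 is named by the submitters' processing notes and the gene table is GRCh38.p14, so coordinates are given only for RefSeq promoter windows (the first listed start of a gene). No detection calls were used.

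Of 15492 rows 12616 had 1 symbol in the platform annotation, 2031 several and 845 none, and 12602 of the first were found in the gene table. For 84 genes with several compared rows the row with the highest mean was taken. Limma (3.58.1, R 4.3.3) was fitted to all 6 columns as 4 group means with 2 residual degrees of freedom and tested on simulated data. Tables were made with Python 3.11.15 and pandas 2.3.3. The members of the comparison and the 40 gene lists were chosen with earlier results of these data known. Named were APEX1 and UBB, the 15 largest differences per direction past both rules, list members past a rule or otherwise the 2 with the largest difference, up to 8 rows per direction seen only with doxycycline and rows seen in 1 line. Some are left out for length, and further members are named as context. Genes of chromosomes 18 and 20, and list members past neither rule, were picked after their values were seen.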

Additional observations from a re-analysis of the deposited data

How the results depend on the processing

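The spread of the vector line is in no value, since each column is an average. Levels near the bottom of the scale, as for MAL2, LCP1 and SPARC, bound no fold. Against 82 rows higher by limma, there were 43 with no row filter, 4 with the values as deposited, 1019 with the 3 treated columns alone and 50 with the median subtracted within block and gene length bin. Against 441 lower there were 213 with a filter at the 50th percentile, 62 as deposited, 2002 with the treated columns alone, 250 within blocks and 201 within block and length bin. By size in both lines, the 103 higher rows became 64 as deposited and 13 at 2-fold, and the 479 lower rows 244 at the 50th percentile, 280 within block and length bin and 114 at 2-fold. For ubAPE1 the 262 higher rows became 114 as deposited, and the 1020 lower rows 1576 as deposited and 659 within blocks. Fewer rows are tested under the stricter filter, and the cause of the other changes was not tested. Over 31 named genes, 278 of 292 alternative limma values kept direction and call, 13 lost the call and 1 turned sign, that of UBB, not called, at -0.0327 with the median subtracted within block and length bin. Differences of 1 line alone, which have no test, kept direction in 62 of 62. APEX1 lost its call with the values as deposited (0.96 log2, limma adjusted p = 0.132). Of 240 list medians under alternatives, 22 turned sign. The within-block settings, the test of the treated minus the untreated difference and its fit with cell line as a block were chosen after seeing the data. No paired analysis was possible because, for the treated differences, the cell line is itself what is compared and the columns carry no replicate numbers.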

Other observations

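Further lists held few called genes. Over all 9569 genes limma called 0.679% higher and 4.03% lower, and the size rule 0.878% and 4.34%. At these shares few calls would fall in lists of this size in any case. Of 21 cytosolic ribosomal protein genes, 24 proteasome genes and 31 genes of DNA replication, 0 were called in either direction by limma or the size rule, with medians of 0.13, 0.01 and -0.07 log2. Rows of RPL14, RPL27A and RPS25 disagreed in sign with another row of the same gene. Of 18 p53 targets BAX, which opens the mitochondrial membrane in cell death, was the one called, 0.84 log2 higher, and CDKN1A read -0.22. Of 37 nuclear genes of the respiratory chain SDHA, a subunit of succinate dehydrogenase, fell by 1.01 log2 and COX7B read 0.69, which met the size rule alone, though not within its block. Of 26 mitosis genes UBE2C, the ubiquitin-conjugating enzyme of mitotic exit, was called higher at 0.68, a limma call lost within its block. UBE2C lies on chromosome 20, whose genes were higher as a set. Of 31 replication-dependent histone genes 2 were called lower, H2AC16 and H2AC8, neither by limma within its block.

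The treated difference also varied with the genomic length of the gene. With the compared genes in 4 equal classes from shortest to longest, the median was 0.13, 0.05, -0.06 and -0.19 log2, and the number past 1.5-fold lower in both lines was 41, 68, 109 and 197. Without doxycycline, with the block median subtracted, the class medians fell from 0.15 to -0.14 in wtAPE1. In ubAPE1 they were -0.03, 0.0092, 0.022 and -0.0020 from shortest to longest.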
